A study of Mus musculus with 16 samples.

Results

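The Hox genes are the part of the transcriptome described here, chosen by symbol as every row named Hoxa, Hoxb, Hoxc or Hoxd with a paralog number. They were 39 of the 31053 genes measured, 11 in the HoxA cluster (chr6:52155590-52260880), 10 in HoxB (chr11:96194316-96368256), 9 in HoxC (chr15:102921103-103036852) and 9 in HoxD (chr2:74668310-74765142), on mm10. The samples were C2C12 cells, an immortalised mouse myoblast line that was first derived from thigh muscle, sequenced as 16 bulk mRNA libraries. The 4 groups held 4 samples each, namely WT myoblasts, WT myotubes, Fam134bKO myoblasts and Fam134bKO myotubes, and the labels number the samples of a group as biological replicates without saying how the cultures were separated. Myotubes formed by spontaneous differentiation of confluent cultures in the growth medium that the myoblasts also received. The Fam134bKO line was made by lentiviral CRISPR-Cas9, with a vector that takes a pair of sgRNAs, and antibiotic selection. The study lists more sgRNAs than 1 pair and does not say which made the line. Whether the line is 1 clone or a pool is not given in the sources used here, and no sample carries a rescue or a control sgRNA by its label. Line and genotype cannot be told apart, because each genotype is 1 line. The labels give the genotype field as unknown, so the groups follow the sample titles.

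Hox genes encode homeodomain transcription factors that lie in 4 clusters and fall into 13 paralog groups. In the embryo they are switched on in the order in which they lie along the cluster, low paralog numbers at the head end and high numbers towards the tail and the far end of the limb, and cells taken from the adult body keep much of this pattern in culture as a memory of where they came from. Polycomb complexes hold the silent genes of a cluster off, trithorax complexes hold the active ones on, and Pbx, Meis and Pknox proteins of the TALE class bind DNA together with Hox proteins. The question put to these data was which Hox genes the line carries, and whether the Fam134bKO line carries the same ones at the same level.

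The promoter windows of 5 genes are printed because they place genes that were read in every sample beside paralogs with few or no reads. Each window holds 250 bases before and 50 bases after a RefSeq transcription start on GRCm38.p6, which shares the coordinates of mm10, and CG dinucleotides, the sites of DNA methylation, are in capitals. Hoxa10 (chr6:52240805-52241104, minus strand, 12 CG) and Hoxc4 (chr15:103034145-103034444, plus strand, 9 CG) are read genes. Hoxd10 (chr2:74691641-74691940, plus strand, 22 CG) is the HoxD paralog of Hoxa10 and had 4 reads over all samples, and Hoxb4 (chr11:96318017-96318316, plus strand, 14 CG) and Hoxd4 (chr2:74721728-74722027, plus strand, 4 CG) are paralogs of Hoxc4 that had 0 reads in all 16 samples.
Hoxa10: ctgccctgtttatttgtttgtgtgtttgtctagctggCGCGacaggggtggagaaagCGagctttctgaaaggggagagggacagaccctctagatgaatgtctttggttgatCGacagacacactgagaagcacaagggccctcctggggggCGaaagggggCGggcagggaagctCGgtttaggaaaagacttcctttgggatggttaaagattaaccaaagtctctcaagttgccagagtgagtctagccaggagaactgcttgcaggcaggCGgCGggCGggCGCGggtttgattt
Hoxd10: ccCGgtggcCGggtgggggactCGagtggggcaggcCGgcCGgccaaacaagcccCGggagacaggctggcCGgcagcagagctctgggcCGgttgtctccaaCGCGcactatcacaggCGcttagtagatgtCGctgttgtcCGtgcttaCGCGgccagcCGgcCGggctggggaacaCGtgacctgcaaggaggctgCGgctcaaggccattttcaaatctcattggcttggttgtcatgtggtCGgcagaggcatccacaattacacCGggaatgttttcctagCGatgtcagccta
Hoxc4: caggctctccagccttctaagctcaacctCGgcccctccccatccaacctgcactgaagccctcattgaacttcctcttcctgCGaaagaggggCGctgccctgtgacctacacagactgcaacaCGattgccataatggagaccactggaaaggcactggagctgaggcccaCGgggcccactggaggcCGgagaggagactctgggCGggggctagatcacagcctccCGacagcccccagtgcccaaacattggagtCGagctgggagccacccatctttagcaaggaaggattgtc
Hoxb4: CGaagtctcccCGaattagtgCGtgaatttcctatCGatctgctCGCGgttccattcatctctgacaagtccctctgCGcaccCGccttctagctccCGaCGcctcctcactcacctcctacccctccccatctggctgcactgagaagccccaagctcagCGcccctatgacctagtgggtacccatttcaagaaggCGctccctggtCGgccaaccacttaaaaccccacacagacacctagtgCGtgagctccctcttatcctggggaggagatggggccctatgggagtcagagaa
Hoxd4: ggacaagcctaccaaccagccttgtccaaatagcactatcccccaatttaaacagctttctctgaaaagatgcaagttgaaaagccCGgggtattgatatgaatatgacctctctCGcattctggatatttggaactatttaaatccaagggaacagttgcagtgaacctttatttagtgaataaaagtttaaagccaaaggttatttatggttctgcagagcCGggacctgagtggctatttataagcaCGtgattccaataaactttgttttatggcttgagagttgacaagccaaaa

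A window was found for 22 of the 39 Hox genes. Where a Hox gene had more than 1 window, only the one nearest its outermost annotated start was counted. The totals over all windows count every window of a gene. Of the 17 Hox genes detected in any group, 7 had a window, namely Hoxa3, Hoxa5, Hoxa7, Hoxa9, Hoxa10, Hoxa11 and Hoxc4. Hoxc9, Hoxc10, Hoxc11 and Hoxc13 had none. The 15 undetected genes with a window included all 9 HoxD genes, so cluster and detection go together here. Those 7 had a median of 12 CG dinucleotides (range 4 to 29) and those 15 a median of 14 (range 4 to 45). The median over all 32851 windows of the table was 7. The CCAAT box, searched as CCAAT on both strands, was found in 2 of the 7 windows of detected genes, in 12 of the 15 of undetected genes and in 37.4% of all windows. The TATA box, searched as TATAAA on both strands, was found in 0 of the 7, in 3 of the 15 and in 13.6% of all windows. The Pbx and Hox pair motif TGATTNAT was found in 0 of the 7, 1 of the 15 and 3.22% of all windows, and the nuclear receptor repeat unit AGGTCA in 2 of the 7, 5 of the 15 and 16.3% of all windows, again on both strands. The windows left out were a further one of Hoxa10 (chr6:52234890-52235189, 21 CG) and a further one of Hoxd11. That of Hoxa10 held 1 TATAAA and 1 CCAAT, and that of Hoxd11 held 1 TGATTNAT. Matches of different motifs were counted separately even where they overlapped, and the counts describe the windows only.

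C2C12 cells read genes of HoxA and HoxC and almost nothing of HoxB and HoxD. Over the 16 samples, HoxC received 12994 reads, HoxA 6951, HoxB 52 and HoxD 8, of 44692941 reads in all. A gene was counted as detected in a group when every sample held at least 3 reads, which is between 2.49 and 5.99 on the scale of the normalized counts, depending on the depth of the sample. WT myoblasts had 16 detected Hox genes, WT myotubes 15, Fam134bKO myoblasts 15 and Fam134bKO myotubes 12. The 12 genes of Fam134bKO myotubes were detected in all 4 groups, namely Hoxa5, Hoxa7, Hoxa9, Hoxa10, Hoxa11, Hoxc4, Hoxc5, Hoxc6, Hoxc9, Hoxc10, Hoxc11 and Hoxc13. They cover 8 of the 13 paralog groups, those numbered 4, 5, 6, 7, 9, 10, 11 and 13.

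**Figure D1:**
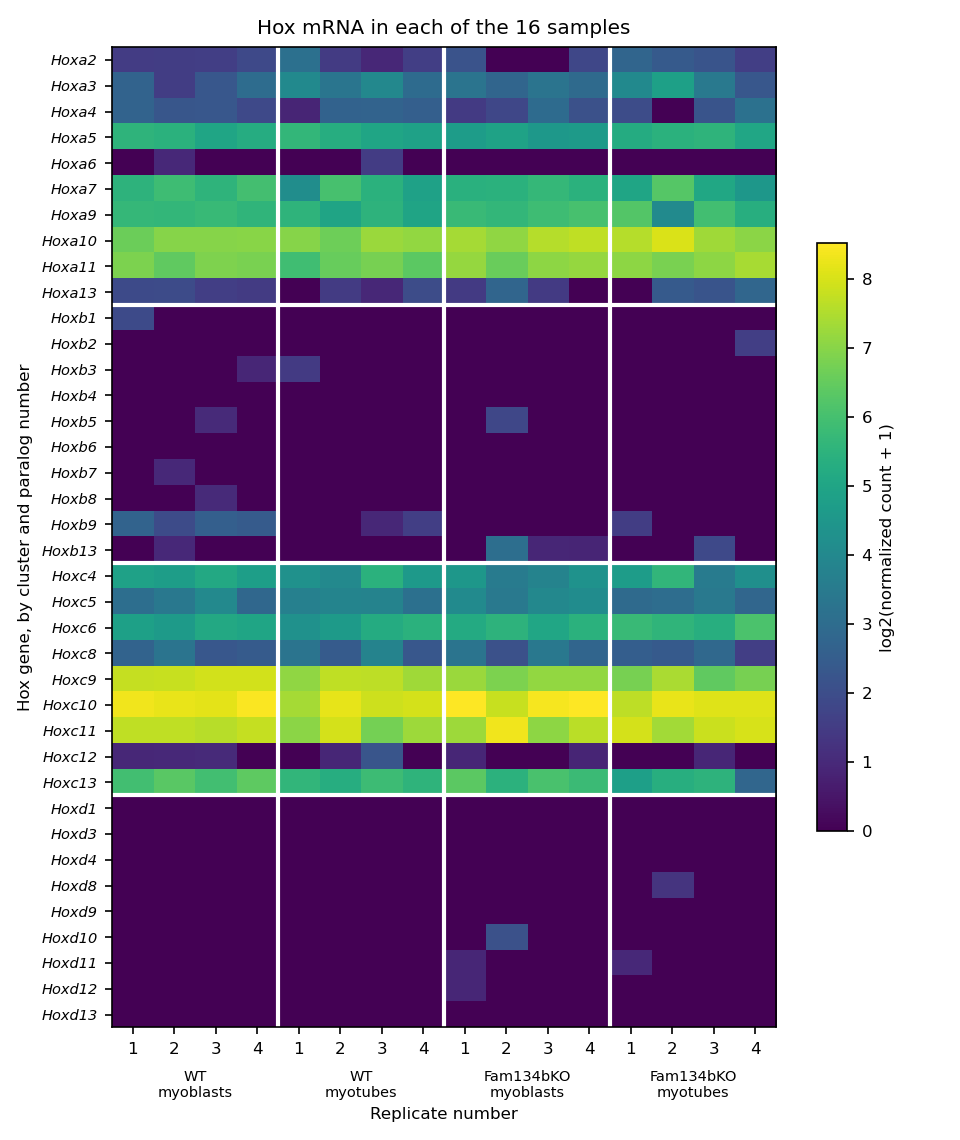
Each row is a Hox gene in order of cluster and paralog number, each column a sample, and the colour the log2(normalized count + 1). White lines separate clusters and groups, and the brightest rows in all 4 groups are Hoxa10, Hoxa11, Hoxc9, Hoxc10 and Hoxc11, with Hoxa6 and Hoxc12 dark between read genes and HoxB and HoxD dark but for a few samples.

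The detected sets of WT myotubes and Fam134bKO myoblasts held the same 15 genes. WT myoblasts shared 14 of them, had Hoxa4 and Hoxb9 in addition, and lacked Hoxa3. Fam134bKO myotubes lacked 3 of the 15, Hoxa3 and Hoxc8 among them. These genes were close to the limit of 3 reads, with 2 to 19 reads per sample for Hoxa3, 0 to 8 for Hoxa4, 1 to 14 for Hoxc8 and 0 to 6 for Hoxb9. Fam134bKO myotube replicates 4 and 2 were also the shallowest samples, with 1484750 and 1790524 reads against 2686680 to 3287461 in all other samples. After scaling all reads to the shallowest sample the groups had 13, 14, 13 and 12 detected genes in the order given above.

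The 22 remaining Hox genes were detected in no group. Hoxb4, Hoxb6, Hoxd1, Hoxd3, Hoxd4, Hoxd9 and Hoxd13 had 0 reads in all 16 samples, which allows up to 3 reads of each gene over the 16 samples together. Hoxd3 and Hoxd4 share 62.3% and 52.3% of their exonic bases with other genes on the same strand, each other included. How reads on shared bases were counted is not given. Hoxa2 and Hoxa13 had 44 and 37 reads in total, at most 9 and 7 in a sample, and lay just below the limit. Hoxb13 had 15 reads, Hoxc12 11, and the other 11 had between 1 and 4 reads over all samples. Within HoxA the read genes were therefore interrupted at Hoxa6, with 3 reads in total between Hoxa5 with 583 and Hoxa7 with 731, and within HoxC at Hoxc12, between Hoxc11 with 3279 and Hoxc13 with 909.

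Hoxc10, Hoxc11 and Hoxc9 led the list in both WT groups, and in the embryo Hoxc10 and Hoxc11 act in the lumbar region and the hindlimb. Levels of different genes are compared as normalized count per kb of annotated exon, and in WT myoblasts Hoxc10 stood at 166 ± 16.1 (SD, n = 4), Hoxc11 at 102 ± 5.49 and Hoxc9 at 95.6 ± 6.04. Hoxc11 and Hoxc9 lay within their spread of each other, and Hoxc10 lay above both in every WT myoblast sample. The posterior HoxA genes followed, Hoxa11 with 46.7 ± 6.16 and Hoxa10 with 36.4 ± 4.55, and then Hoxc13 with 29.1 ± 5.05, Hoxa5 with 20.9 ± 3.49 and Hoxa7 with 18.3 ± 3.08. Hoxc6, Hoxc4 and Hoxa9 stood between 8.89 and 12.1, and Hoxc5, Hoxa4, Hoxc8, Hoxb9 and Hoxa3 between 0.773 and 3.10. Hoxc10 and Hoxc11 ranked 1 and 2 per kb in all 4 groups, while Hoxc9 ranked 4 in Fam134bKO myoblasts (55.8 ± 6.39) and 5 in Fam134bKO myotubes (48.8 ± 15.3), and Hoxa11 ranked 3 in both (56.6 ± 10.3 and 59.8 ± 10.7). In the Fam134bKO groups Hoxa11, Hoxc9 and Hoxa10 lay within their spread of each other. The study's methods name the library service as NEGEDIA Digital mRNA-seq, and the sources used here do not state whether it reads whole transcripts or a single end. Levels per kb rest on reads from whole transcripts, so the order was also taken without division by length. Undivided, Hoxc10 still ranked 1 in all 4 groups, and Hoxc9 passed Hoxc11 in both WT groups. Hoxa10 then stood above Hoxa11 in all 4 groups, with Hoxa11 at rank 5 in Fam134bKO myoblasts and 4 in Fam134bKO myotubes. Hoxa9 ranked 8 in WT myoblasts undivided and 11 per kb.

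**Figure D2:**
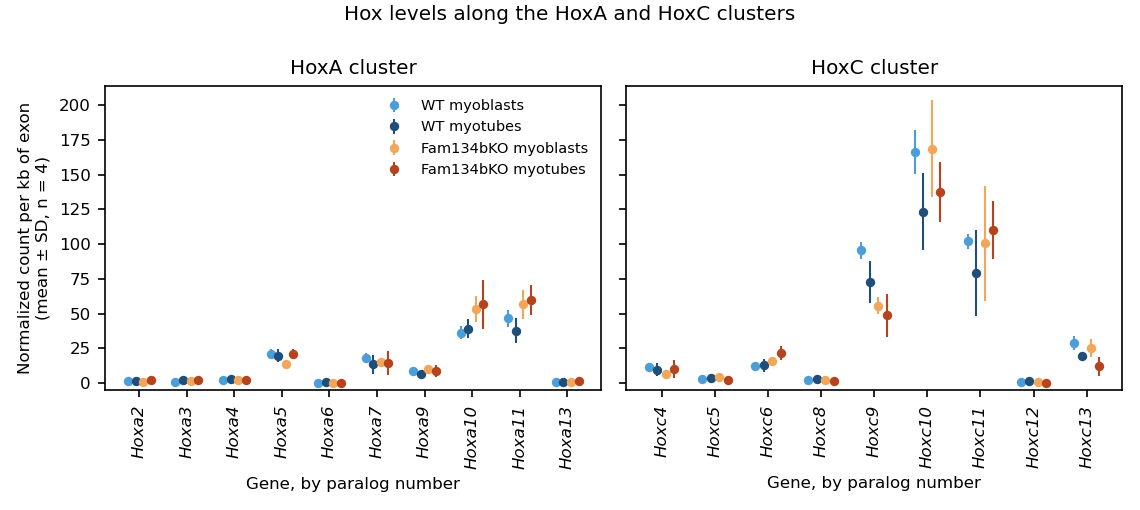
Mean normalized count per kb of exon with the SD of 4 samples for HoxA and HoxC genes, in order of paralog number, coloured by group. The 4 groups follow 1 outline, low up to paralog group 8, highest at Hoxc9 to Hoxc11 and at Hoxa10 and Hoxa11, and low again at Hoxa13 and Hoxc12.

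Paralogs were read unequally. In groups 9, 10 and 11 the HoxC gene stood above its HoxA paralog in WT myoblasts, per kb 95.6 for Hoxc9 against 8.89 for Hoxa9, 166 for Hoxc10 against 36.4 for Hoxa10 and 102 for Hoxc11 against 46.7 for Hoxa11. Without division by length the normalized counts of these pairs were 232 against 49.6, 318 against 119 and 206 against 107. In group 5 the order was the other way round, with Hoxa5 at 20.9 and Hoxc5 at 3.10. Hoxc13, known for its role in hair and nail, stood at 29.1 and its paralog Hoxa13, which patterns the digits and the genital tract, at 0.955. Undivided, Hoxa5 stood at 39.3 against 9.57 for Hoxc5, and Hoxc13 at 71.7 against 2.36 for Hoxa13.

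Summed over a cluster, HoxA stood at 388 ± 16 normalized counts in WT myoblasts, 360.0 ± 35.6 in WT myotubes, 452 ± 59.2 in Fam134bKO myoblasts and 482 ± 55.5 in Fam134bKO myotubes (SD, n = 4). HoxC stood at 902 ± 48.5, 696 ± 128, 799.9 ± 47.9 and 723 ± 44.8 in the same order. HoxA made up 29.5 to 30.8% of the Hox reads of WT myoblast samples and 32.0 to 39.2% of those of Fam134bKO myoblast samples, and these ranges did not overlap. In myotubes it made up 29.2 to 38.4% in WT and 36.3 to 42.2% in Fam134bKO samples, and these ranges overlapped.

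Before the comparisons, the labels and the cells were checked against their markers. Fam134b itself stood at 207 ± 42.0 normalized counts in WT myoblasts, 232 ± 61.6 in WT myotubes, 27.5 ± 5.49 in Fam134bKO myoblasts and 41.8 ± 14 in Fam134bKO myotubes, with no overlap between genotypes and 14 to 56 reads left in each Fam134bKO sample. Of 13 myogenic markers in the file, Pax7 and Myf6 were at or under 3 reads in WT myoblasts, and Myh3, Myog, Pax7, Ckm, Myf6 and Actc1 were so in Fam134bKO myoblasts. The summed level of the list was 1762 to 3107 in WT and 374 to 494 in Fam134bKO myoblasts, while the myotubes reached 16651 to 24652 (WT) and 9717 to 12032 (Fam134bKO), and Myod1, which sets the myogenic programme, stood at 282, 9.62, 763 and 292 in that order of groups. Summed fibroblast and mesenchymal markers, 14 of 14 in the file, ranged from 4478 to 7846 in WT and 7178 to 21036 in Fam134bKO myoblasts, and between 14731 and 26994 in WT and 22046 and 44243 in Fam134bKO myotubes, with Thy1 and Lum at or under 3 reads in all 4 groups. Of 16 markers of other cell types, 11 were at or under 3 reads in each group. These shifts go with genotype and differentiation, their part in the Hox values was not tested, and in bulk samples fewer cells of a type and less RNA per cell cannot be told apart.

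Tests were made with limma on log2(normalized count + 1) over the 10767 genes that reached a normalized count of 10 in 4 or more samples, and calls were made at an adjusted p under 0.05 (Benjamini-Hochberg over those genes). Of the 39 Hox genes, 14 passed that minimum, among them Hoxa3, Hoxa5, Hoxa7, Hoxa9, Hoxa10, Hoxa11, Hoxc4, Hoxc5, Hoxc6, Hoxc9, Hoxc10, Hoxc11 and Hoxc13, and 25 did not and are given by their reads. Fold changes are on the log2(normalized count + 1) scale and understate the change of low genes. The 4 comparisons share groups of samples pairwise, so their values stand side by side and are not independent of each other.

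In myoblasts, 1 of the 14 tested Hox genes was called between the lines. Hoxc9 (chr15:102976439-102985099, plus strand), a gene of the thoracic to lumbar transition, stood at 216, 224, 243 and 246 normalized counts in WT myoblasts and at 150.5, 114, 139 and 139 in Fam134bKO myoblasts. Every Fam134bKO sample lay below every WT sample. Hoxc9 fell by 0.78 on the log2 scale (SE 0.20, 95% interval -1.19 to -0.37, limma, Benjamini-Hochberg adjusted p = 0.00835), a level of 0.584 times that of WT. Over all genes tested, 7.26% were called higher and 8.5% lower in this comparison, against 0 and 1 of the 14 Hox genes.

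A further 3 Hox genes did not overlap between the lines in myoblasts without being called. Hoxa10, a gene of limb and reproductive tract patterning, had 96.9, 123, 126 and 129 normalized counts in WT and 164, 136, 191 and 208 in Fam134bKO myoblasts, a log2 fold change of 0.54 (SE 0.21, limma, Benjamini-Hochberg adjusted p = 0.0866). Hoxa5 had 46.1, 42.4, 31.0 and 37.4 in WT and 25.4, 29.1, 22.6 and 24.2 in Fam134bKO myoblasts, a log2 fold change of -0.61 (SE 0.24, adjusted p = 0.0961). Hoxc4 had 28.6, 26.0, 34.0 and 26.7 in WT and 21.9, 10.8, 13 and 19.2 in Fam134bKO myoblasts, a log2 fold change of -0.84 (SE 0.39, adjusted p = 0.164). With Hoxc9 these made 4 of 14 Hox genes without overlap, while 26.8% of all tested genes had none. When only the 8 myoblast samples entered the fit, the 4 genes were called.

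For the other 10 tested genes the myoblast groups overlapped. Hoxc10, the most abundant, had 326, 303, 285 and 356 normalized counts in WT and 362, 225, 336 and 367 in Fam134bKO myoblasts, and its 95% interval ran from -0.40 to 0.40 on the log2 scale. Hoxc11 had 208, 206, 192 and 219 in WT and 155, 322, 135 and 200.2 in Fam134bKO myoblasts, so its mean hardly moved while its SD went from 11.1 to 83.8. Over the 14 genes the log2 fold changes ran from -0.84 to 0.67 with a median of -0.05, beside a median of -0.01 over all genes tested, and the median size without sign was 0.33 beside 0.31. The 95% intervals of the 14 genes reached from -1.64, for Hoxc4, to 1.68, for Hoxa3.

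The genes called in other comparisons overlapped here too. Hoxa11 had 114, 85.8, 115 and 112 normalized counts in WT and 143, 94.6, 135 and 144 in Fam134bKO myoblasts. Hoxc6 had 27.7, 24.1, 34.0 and 31.2 in WT and 35.9, 44.8, 32.1 and 42.5 in Fam134bKO myoblasts, with only the lowest Fam134bKO sample inside the WT range. Hoxc13 had 60.9, 81.0, 61.0 and 83.8 in WT and 82.2, 44.0, 66.8 and 55.1 in Fam134bKO myoblasts, where 2 Fam134bKO samples lay below the WT range.

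The trunk genes Hoxa7 and Hoxa9 were called in no comparison. Hoxa7 stood at 52.6 ± 8.86 normalized counts in WT myoblasts, 38.4 ± 20.4 in WT myotubes, 44.3 ± 4.02 in Fam134bKO myoblasts and 40.7 ± 24.9 in Fam134bKO myotubes (SD, n = 4), and 20.4% of its exonic bases overlap the antisense gene Hoxaas3. Hoxa9 stood at 49.6 ± 2.75, 37.9 ± 8.40, 56.0 ± 6.47 and 47.9 ± 25.6 in the same order. The SD of both genes was larger in the myotubes of either line than in its myoblasts. Hoxa3 stood at 11.6 ± 4.27 in WT and 14.3 ± 10.1 in Fam134bKO myotubes, and Hoxc5 at 9.57 ± 3.89 in WT myoblasts and 11.6 ± 2.54 in WT myotubes. Hoxa5 stood at 37.1 ± 9.12 in WT myotubes.

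**Figure D3:**
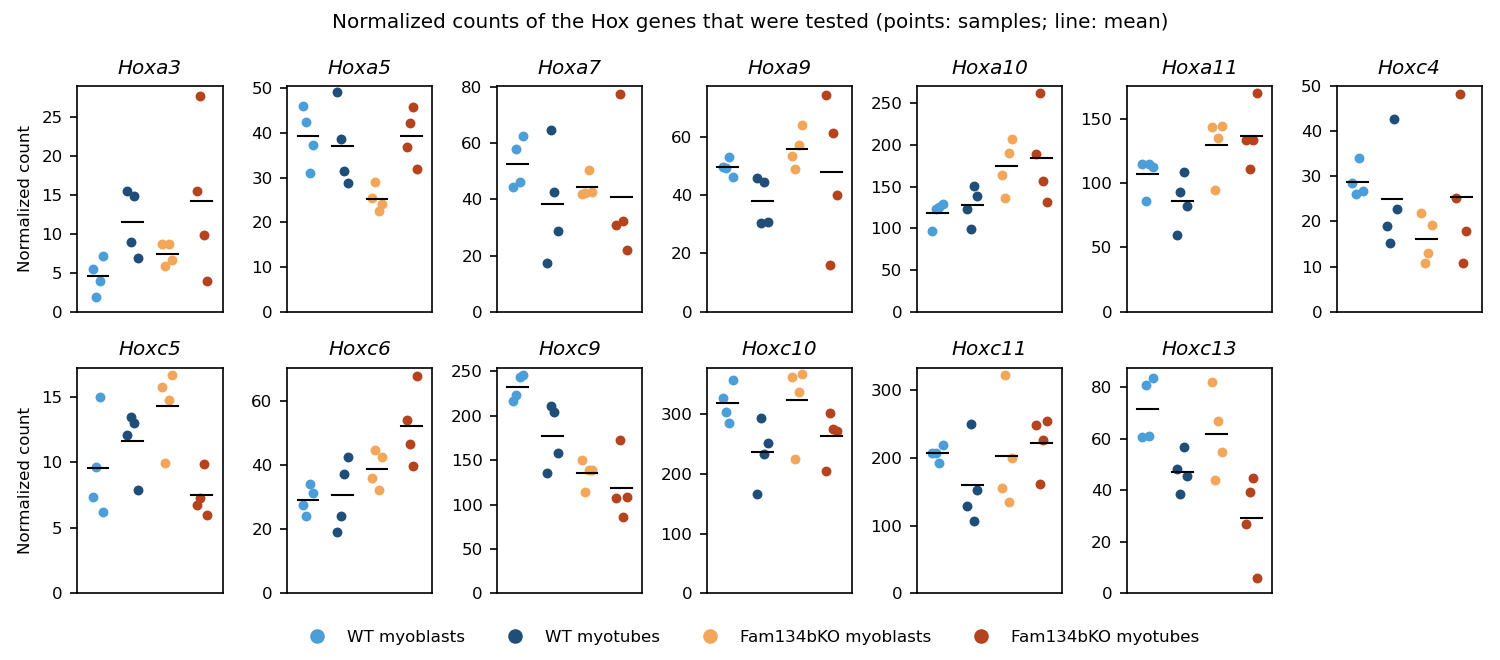
Normalized counts of the tested Hox genes named in the text, with a point for each sample and a line at the mean of each group, each panel on an axis from 0. For Hoxc9 every Fam134bKO myoblast sample lies below every WT myoblast sample, and for Hoxa11 every Fam134bKO myotube sample lies above every WT myotube sample.

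In myotubes, 3 of the 14 tested Hox genes were called between the lines, Hoxa11 and Hoxc6 upwards and Hoxc9 downwards. That is near the share of all tested genes, of which 9.74% were called higher and 13.7% lower. Hoxa11 (chr6:52242106-52245810, minus strand), which patterns the forearm and lower leg, had 59.6, 92.7, 109 and 82.2 normalized counts in WT and 134, 111, 133 and 169.8 in Fam134bKO myotubes. The groups did not overlap, and Hoxa11 was 1.61 times as high in Fam134bKO (log2 fold change 0.68, SE 0.21, limma, Benjamini-Hochberg adjusted p = 0.0206). The call was lost without WT myotube replicate 1 (0.52, adjusted p = 0.0725) and without Fam134bKO myotube replicate 4 (0.58, adjusted p = 0.0607). Of its exonic bases 35% overlap the antisense gene Hoxa11os, and since the strand setting of the counting is not given, reads of the pair cannot be told apart.

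Hoxc6 (chr15:102998257-103011881, plus strand), a gene of the forelimb and upper thorax, had 19.0, 24.3, 37.2 and 42.6 normalized counts in WT and 54.2, 46.7, 39.6 and 67.9 in Fam134bKO myotubes. Only the lowest Fam134bKO sample lay within the WT range, and the log2 fold change was 0.78 (SE 0.27, limma, Benjamini-Hochberg adjusted p = 0.0391). A two-sided exact permutation test of Hoxc6 gave p = 0.0571. The call was lost without WT myotube replicate 1 or 2 and without Fam134bKO myotube replicate 1 or 4, with log2 fold changes of 0.58, 0.70, 0.75 and 0.65.

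Hoxc9 had 136, 211, 204 and 158 normalized counts in WT and 107, 172, 86.4 and 108 in Fam134bKO myotubes. The highest Fam134bKO sample lay within the WT range, and Hoxc9 fell by 0.60 on the log2 scale (SE 0.20, limma, Benjamini-Hochberg adjusted p = 0.0323), with p = 0.0857 in the two-sided exact permutation test. The call was lost without WT myotube replicate 2 or 3 and without Fam134bKO myotube replicate 1, 3 or 4, with log2 fold changes between -0.57 and -0.46. Of all genes tested 9.74% were called higher and 13.7% lower in this comparison, against 2 and 1 of the 14 Hox genes, and 19.4% did not overlap, against 1 of 14. When only the 8 myotube samples entered the fit, 0 Hox genes were called, with adjusted p from 0.0739 for Hoxa11 to 0.132 for Hoxc6, and 6 of the 14 had an unadjusted p under 0.05 in the fit of all samples.

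The further 3 with an unadjusted p under 0.05 in myotubes were Hoxa10, Hoxc11 and Hoxc13. Hoxa10 had 123, 99, 151 and 139 normalized counts in WT and 189, 263, 157 and 132 in Fam134bKO myotubes, a log2 fold change of 0.50 (SE 0.21, limma, Benjamini-Hochberg adjusted p = 0.0913). Hoxc11 had 129.5, 249, 107 and 153 in WT and 248, 162, 226 and 254 in Fam134bKO myotubes (0.53, SE 0.25, adjusted p = 0.138). Hoxc13 had 48.3, 38.7, 56.7 and 45.6 in WT and 27.1, 39.4, 45.0 and 5.99 in Fam134bKO myotubes (-0.96, SE 0.40, adjusted p = 0.0897), and its lowest value was 3 reads in the shallowest sample, Fam134bKO myotube replicate 4. Without that sample the log2 fold change of Hoxc13 was -0.36 (adjusted p = 0.335), and without Fam134bKO myotube replicate 2 or 3 it was -1.20 or -1.26 and was called (adjusted p = 0.0383 and 0.0312). The groups of all 3 genes overlapped. Over the 14 genes the myotube log2 fold changes ran from -0.96 to 0.78 with a median of 0.09, beside -0.07 over all genes tested, and the median size without sign was 0.51 beside 0.38.

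**Figure D4:**
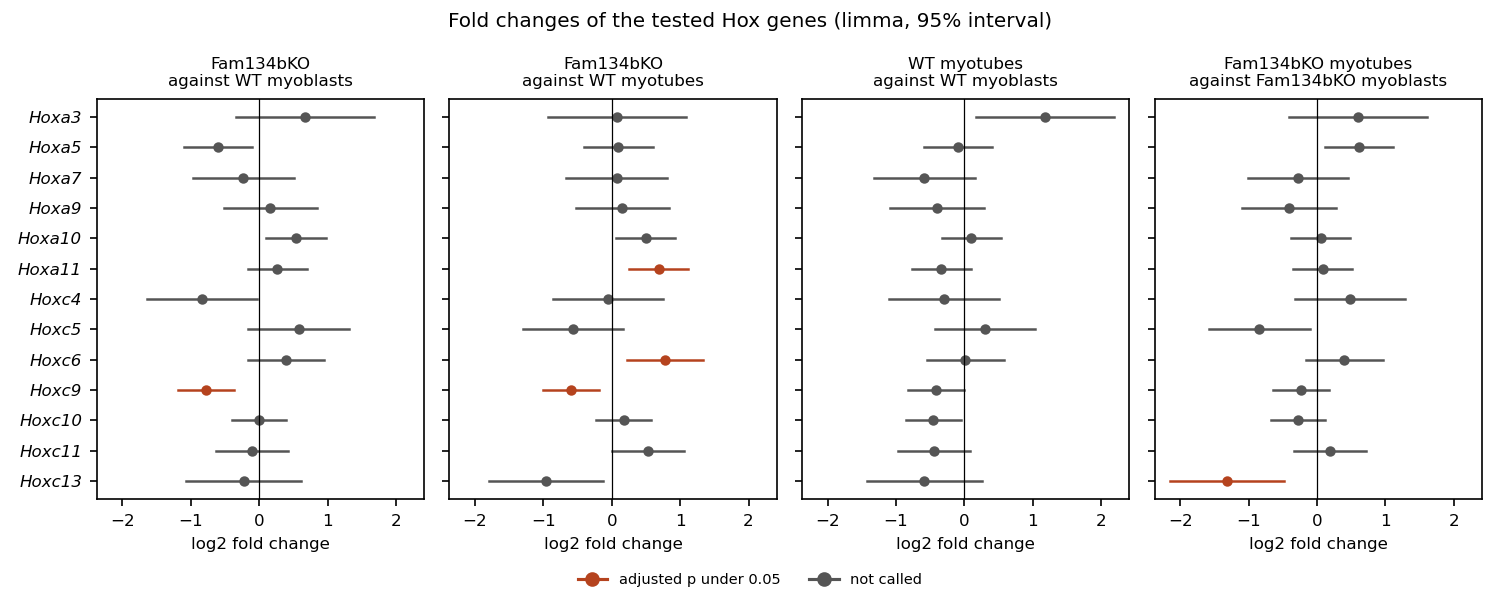
Log2 fold change of the tested Hox genes named in the text, each with its 95% interval from limma in the 4 comparisons, with genes called at an adjusted p under 0.05 in red. Hoxc9 lies left of 0 and in red in both comparisons of genotypes, and most intervals of the other genes cross 0.

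In WT cells the Hox genes had a median log2 fold change of -0.32 from myoblasts to myotubes, beside -0.01 over all genes tested, and 5 of the 14 were positive. The median size without sign was 0.41 beside 0.39. By limma 0 of the 14 were called between WT myoblasts and WT myotubes, 2 had an unadjusted p under 0.05, and 13.8% of all genes tested were called higher and 9.16% lower. Those 2 were Hoxc10, with 167, 293, 232 and 251 normalized counts in WT myotubes (log2 fold change -0.45, SE 0.19, Benjamini-Hochberg adjusted p = 0.0936), and Hoxa3, with 5.54, 1.93, 4.00 and 7.13 in WT myoblasts and 15.5, 9.0, 14.9 and 6.94 in WT myotubes (1.19, SE 0.49, adjusted p = 0.0832). With sample weights 5 of the 14 were called, Hoxc11, Hoxc10, Hoxc9, Hoxa7 and Hoxa3. Hoxa9, Hoxc9 and Hoxc13 lay lower in every WT myotube than in every WT myoblast sample, with log2 fold changes of -0.40, -0.41 and -0.59, which is 3 of 14 while 28.0% of all tested genes did not overlap.

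In the Fam134bKO line 1 of the 14 was called between myoblasts and myotubes. Hoxc13 (chr15:102921103-102928814, plus strand) had 82.2, 44.0, 66.8 and 55.1 normalized counts in Fam134bKO myoblasts and 27.1, 39.4, 45.0 and 5.99 in Fam134bKO myotubes. The highest myotube sample lay above the lowest myoblast sample, and Hoxc13 fell by 1.32 on the log2 scale (SE 0.40, limma, Benjamini-Hochberg adjusted p = 0.0153), with p = 0.0571 in the two-sided exact permutation test. Without Fam134bKO myotube replicate 4, the sample with 3 reads, the fold change was the smallest of those that leave out 1 sample, at -0.72, and the gene stayed called, whereas without Fam134bKO myoblast replicate 1 it was -1.18 with an adjusted p of 0.0542.

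Hoxa5 lay higher in every Fam134bKO myotube than in every Fam134bKO myoblast sample without being called, with 36.8, 42.3, 45.9 and 32.0 normalized counts against 25.4, 29.1, 22.6 and 24.2 (log2 fold change 0.61, SE 0.24, adjusted p = 0.0558). Hoxc5 lay below in every sample, with 6.78, 7.30, 9.90 and 5.99 against 15.7, 9.96, 14.7 and 16.7 (-0.84, SE 0.35, limma, Benjamini-Hochberg adjusted p = 0.0711). These were 2 of 14, while 27.4% of all tested genes did not overlap and 17.3% were called higher and 16.1% lower. In Hoxc5, 5.37% of the exonic bases are shared with Hoxc10 on the same strand.

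The difference between the lines was also compared between myoblasts and myotubes as an interaction. Of the 14 Hox genes 0 were called by limma, 1 had an unadjusted p under 0.05, and 1.97% of all genes tested were called higher and 1.48% lower. That gene was Hoxc5, with a log2 interaction of -1.14 (SE 0.50, Benjamini-Hochberg adjusted p = 0.237). For Hoxc9, called in both comparisons of genotypes, the 95% interval of the interaction ran from -0.40 to 0.76 on the log2 scale.

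Hoxb9 missed the minimum for testing and was the only HoxB gene detected in any group. It had 6, 3, 5 and 5 reads in WT myoblasts, 0, 0, 1 and 2 in WT myotubes, 0 in all 4 Fam134bKO myoblast samples, and 2, 0, 0 and 0 in Fam134bKO myotubes. The 4 Fam134bKO myoblast samples together had 0 reads, which allows up to 3, and the 4 WT myoblast samples together had 19. No fold is given for a group with 0 reads, and without the filter Hoxb9 was called between the lines in myoblasts. Fam134bKO myoblast replicate 2 held most of the HoxB and HoxD reads of its group, with 9 reads of Hoxb13, 3 of Hoxb5 and 4 of Hoxd10, beside 7 of Hoxa13 and the highest Hoxc11 level, 322.

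The genes around the clusters were read unequally. Beside HoxD, Mtx2, a mitochondrial outer membrane protein, stood between 145 and 187 normalized counts in the 4 groups. On the side of HoxB that holds Snf8, the nearer genes of the list, Ttll6 and Calcoco2, had 1 and 2 reads over all 16 samples, and Snf8 further out stood between 244 and 291. On the other side of HoxB, Skap1 had 39 reads over all samples. Jazf1, on the far side of HoxA, had 0, while Tax1bp1, which lies nearer to HoxA on that side, stood between 367 and 581 normalized counts. Evx1 and Evx2, the homeobox genes at the ends of HoxA and HoxD, and Hottip at the far end of HoxA had 0 reads in all samples. Hotair (chr15:102944062-102947730, minus strand), a non-coding RNA between Hoxc11 and Hoxc12, stood at 16.6 ± 5.05 in WT myoblasts, 15.3 ± 4.88 in WT myotubes, 20.1 ± 4.31 in Fam134bKO myoblasts and 18.8 ± 2.80 in Fam134bKO myotubes.

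Beside the counts of the other gene lists stand the shares of all tested genes, 7.26% called higher and 8.5% lower in Fam134bKO myoblasts, 9.74% and 13.7% in Fam134bKO myotubes, and the medians over all tested genes, -0.01 and -0.07. Of the neighbour and non-coding RNA list, with medians of 0.11 in myoblasts and 0.15 in myotubes, 15 genes were tested, and 1 was called higher and 0 lower in Fam134bKO myoblasts, Tax1bp1 beyond the HoxA cluster (log2 fold change 0.52, SE 0.16). In Fam134bKO myotubes 2 were called higher and 4 lower. The higher were Skap2 (0.60, SE 0.19), next to HoxA, and Calcoco1 (0.48, SE 0.16), on the HoxC side. The lower were Smug1 (-1.06, SE 0.27), Cbx5 (-0.80, SE 0.17) and Hnrnpa1 (-0.72, SE 0.19), which lie beyond Hoxc4, and Snx10 (-0.75, SE 0.27) beyond Skap2. Hoxc4 itself stood at 25.0 ± 12.3 in WT and 25.5 ± 16.2 normalized counts in Fam134bKO myotubes.

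Of the Hox cofactors of the TALE class 8 were tested, with medians of 0.06 in myoblasts and -0.10 in myotubes, and Pbx2, Pbx3, Meis1, Meis2, Pknox1 and Pknox2 each had 15 or more reads in every sample. Pknox2 was called lower in Fam134bKO myoblasts (227 ± 46.6 against 53.5 ± 7.57 normalized counts, log2 fold change -2.05, SE 0.22, limma, Benjamini-Hochberg adjusted p = 3.98e-07) and was the 1 call there. In Fam134bKO myotubes 1 was called higher and 2 lower, the latter Pknox2 (-0.93, SE 0.22) and Meis3 (-2.13, SE 0.61), the last with 0 to 12 reads per Fam134bKO sample.

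Of 50 limb, axial and head patterning genes 23 were tested, with medians of 0.23 in myoblasts and 0.10 in myotubes. The selectors of limb type had few or no reads, with 0 to 1 for Pitx1, the hindlimb gene, 0 to 7 for Tbx4 of the hindlimb and 0 to 1 for Tbx5 of the forelimb. Tcf21, a gene of head muscle, had 0. Shox2, of the proximal limb skeleton, stood between 111 and 142 normalized counts in the 4 groups, and Pax3, the migrating muscle precursor gene, between 16.8 and 31.2. In Fam134bKO myoblasts 3 were called higher, Alx1 (log2 fold change 1.34, SE 0.36), Prrx1 (1.23, SE 0.16) and Prrx2 (0.89, SE 0.23), and 2 lower, among them Six4 (-1.11, SE 0.28), a homeobox gene that acts upstream of Myod1. In Fam134bKO myotubes, where 9.74% of all tested genes were called higher and 13.7% lower, 7 of the 23 were called higher, led by Prrx2 (1.68, SE 0.23), Alx1 (1.51, SE 0.36) and Eya1 (1.48, SE 0.42), and 3 lower, among them Tbx3 (-1.12, SE 0.35) and Six4 (-1.11, SE 0.28).

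**Figure D5:**
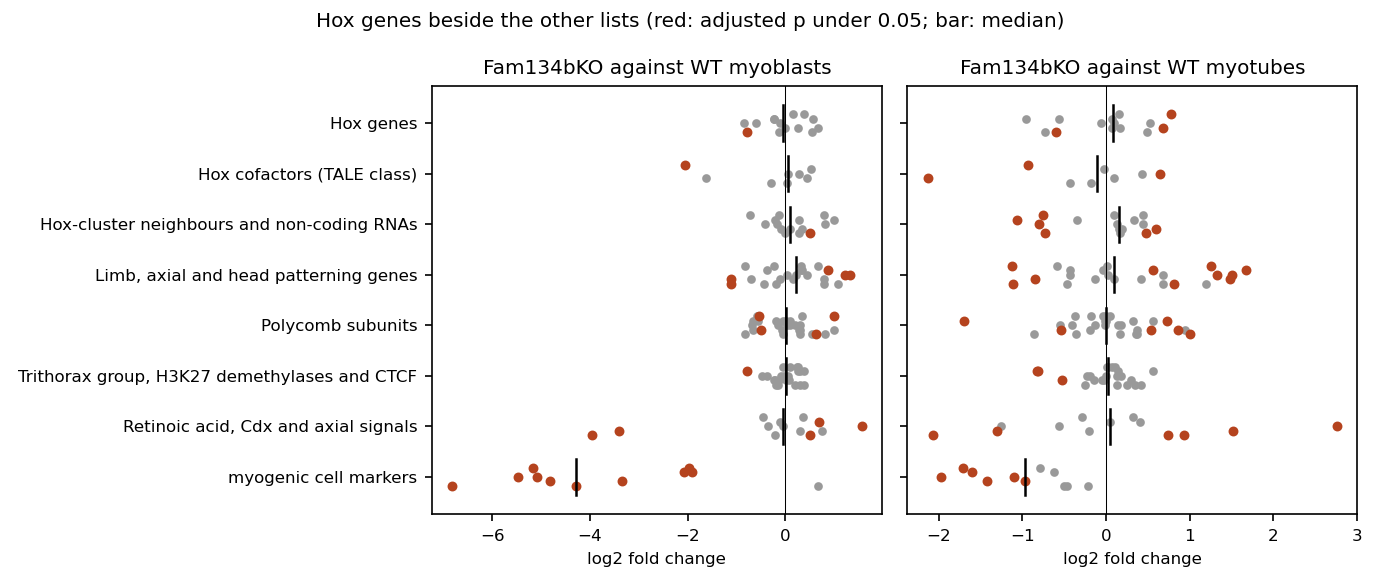
Log2 fold change of every tested gene of the Hox family and of 7 other lists in the 2 comparisons of genotypes, with a point for each gene, genes called at an adjusted p under 0.05 in red and a bar at the median of each list. The median of the Hox genes lies at -0.05 in myoblasts and 0.09 in myotubes, and that of the myogenic markers at -4.28 and -0.97.

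Chromatin regulators of the clusters were tested beside them. Of 29 Polycomb subunits 2 were called higher and 2 lower in Fam134bKO myoblasts, a share near the 7.26% and 8.5% of all tested genes, among them Scmh1 (log2 fold change 0.63, SE 0.18) against Yaf2 (-0.53, SE 0.16) and Pcgf3 (-0.50, SE 0.16), members of the PRC1 family. In Fam134bKO myotubes 4 were called higher, led by Scmh1 (1.01, SE 0.18), Ezh1 (0.86, SE 0.15) and Cbx6 (0.73, SE 0.24), and 2 lower, Phf19 (-1.70, SE 0.49) and Pcgf3 (-0.53, SE 0.16). Of 23 genes of the trithorax group, H3K27 demethylases and CTCF with cohesin, 0 were called higher in either comparison, Asxl2 (-0.78, SE 0.23) was called lower in myoblasts, and Asxl2 (-0.82, SE 0.23), Psip1 (-0.81, SE 0.21) and Stag1 (-0.52, SE 0.17) in myotubes. The list medians lay between 0.01 and 0.03 in both comparisons.

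Retinoic acid, which induces 3' Hox genes in the embryo, has its receptors, enzymes and carriers in a list of 28 genes. The list also holds Cdx genes and other axial genes, Greb1 and Nr6a1 among them. Of the 28 genes 13 were tested, with medians of -0.04 in myoblasts and 0.05 in myotubes. In Fam134bKO myoblasts 3 were called higher, Dhrs3 (log2 fold change 1.56, SE 0.25), Rxra (0.70, SE 0.21) and Rarg (0.51, SE 0.15), and 2 lower. Among the lower was the retinoid carrier Crabp2, with 128 ± 29.4 normalized counts in WT and 11.5 ± 3.65 in Fam134bKO myoblasts (-3.40, SE 0.30). In Fam134bKO myotubes 4 were called higher, led by Greb1 (2.76, SE 0.50), Nr6a1 (1.52, SE 0.27) and Rdh10 (0.93, SE 0.19), and 2 lower, among them Crabp2 (-1.31, SE 0.30). Hoxa3, towards the 3' end of its cluster, stood at 4.65 ± 2.22 normalized counts in WT and 7.48 ± 1.47 in Fam134bKO myoblasts, and the groups overlapped. Cdx2, an upstream activator of Hox genes in the trunk, had 0 reads in all samples.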

How the data were processed

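C2C12 cells were measured by bulk mRNA sequencing in 4 groups of 4 samples. Per the labels and the study's methods, the authors trimmed reads with bbduk, removed ribosomal RNA and phiX, aligned to mm10 with STAR 2.6.0a and counted per gene with HTSeq. The deposited values are log2 of a normalized count plus 1, and the normalization tool is not given in the sources used here. After reversing the log2, values of a sample were whole multiples of 1 step in 100% of cases (tolerance 0.02 steps), so reads per gene were recovered, 1484750 to 3287461 per sample, and 3 reads were the limit of detection. Replicates of a group correlated with r from 0.879 to 0.984. Intervals and limits cover counting or sample error only, and p-values measure the spread between these samples.

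Groups were compared with limma 3.58.1 (R 4.3.3), with 4 group means, a trend and Benjamini-Hochberg adjustment, on genes that reached a normalized count of 10 in 4 or more samples. It was tested on simulated data. Exact permutation tests used scipy 1.17.1. Exon lengths and coordinates came from GENCODE M21, and promoters from RefSeq. The Hox genes, the lists and the tests were chosen with earlier results of these data known. Hox genes were named by reads and tests, and of each other list the called genes with the 3 largest changes each way, except that some genes are not reported here although they enter the counts and medians. Alternatives were the pseudocount, filter, scaling, sample weights, replicate block, samples fitted, and each sample left out.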

Additional observations from a re-analysis of the deposited data

Results flagged for a closer look

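Of 79 combinations of a Hox gene and a group with at least 3 reads in a sample, 9 held a sample that stood apart from the other 3 by Dixon's test at the 95% level. The test flags about 1 in 20 by chance for normally distributed values, which read counts near 0 are not. Any combination with reads in only 1 sample was flagged by construction, as for Hoxb1, Hoxb5, Hoxd10 and, in Fam134bKO myotubes, Hoxb13. The 9 of 79 can therefore not be set against that rate. The cause was not tested for any of the 9.

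Among genes that were tested between groups, Hoxa11 stood at 85.8 normalized counts in WT myoblast replicate 2 against 112 to 115 in the others, and Hoxa7 at 50.3 in Fam134bKO myoblast replicate 3 against 42.0 to 42.5. Of the low HoxA genes, Hoxa2 stood at 7.77 in WT myotube replicate 1 (9 reads) against 0.929 to 1.98, and Hoxa4 at 0.863 in the same sample (1 read) against 4.95 to 5.58.

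The other 5 were HoxB and HoxD genes with no or nearly no reads elsewhere. Fam134bKO myoblast replicate 2 had 7.47 for Hoxb13 (9 reads) against 0 to 0.868, 3.32 for Hoxd10 (4 reads) against 0, and 2.49 for Hoxb5 (3 reads) against 0. Hoxb1 stood at 2.77 in WT myoblast replicate 1 (3 reads) and Hoxb13 at 2.70 in Fam134bKO myotube replicate 3 (3 reads), against 0 in the other samples of the group.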

How the results depend on the processing

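The call of Hoxc9 in myoblasts held under every alternative, with log2 fold changes from -0.83 to -0.70 when each sample was left out. No other call of a Hox gene held throughout, and no fold change printed for a Hox gene changed sign. With only the 8 samples compared, 4 Hox genes were called in myoblasts (Hoxa10, Hoxc9, Hoxa5, Hoxc4), 0 in myotubes, 2 in WT differentiation (Hoxc13, Hoxa3) and 0 in Fam134bKO differentiation, and the spread was then estimated from fewer samples. With sample weights 4 were called in myoblasts (the same genes), 5 in WT differentiation (Hoxc11, Hoxc10, Hoxc9, Hoxa7, Hoxa3), 2 in Fam134bKO differentiation (Hoxc13, Hoxa5) and 1 in the interaction (Hoxc11). Without the filter Hoxb9 was added to the calls in myoblasts (2 in all), WT differentiation (1) and the interaction (1). The cause was not tested for the weights and the filter.

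Leaving out each sample gave 1 to 2 calls in myoblasts, 1 to 4 in myotubes, 0 to 2 in either differentiation and 0 in the interaction, and 16 to 17, 15 to 16, 15 to 16 and 12 to 16 detected genes in WT myoblasts, WT myotubes, Fam134bKO myoblasts and Fam134bKO myotubes. In myotubes 1 call was left without WT replicate 1 (Hoxc9), Fam134bKO replicate 1 (Hoxa11) or Fam134bKO replicate 4 (Hoxa10), and the call of Hoxc9 was lost without WT replicates 2 and 3 and Fam134bKO replicates 1, 3 and 4. The call of Hoxc6 was also lost without the filter (adjusted p = 0.0581) and with weights (0.332).

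The deviations of samples with the same number had a mean r of 0.0330 (24 pairs, 10 above 0.1), and those of samples with different numbers -0.0108 (72 pairs, 17 above 0.1). Since not every pair with the same number was above 0.1, the numbers were not taken as a pairing, and a replicate block left 1, 3, 0, 1 and 0 calls, the same genes. Other minimums for detection, at least 1 or 10 reads or 3 of 4 samples, gave 19 or 11 or 17, 17 or 11 or 16, 16 or 12 or 16, and 16 or 9 or 18 genes in the order of groups above. Of the 17 list genes called in myoblasts and the 34 in myotubes, to which the same alternatives were applied after seeing the data, 10 and 20 kept their call throughout and 0 changed sign. Low genes are limited by depth, since 3 reads are between 2.49 and 5.99 normalized counts.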

Other observations

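Of 29 Polycomb subunits, 1 was called higher and 3 lower between WT myoblasts and WT myotubes, where 13.8% of all tested genes were called higher and 9.16% lower, and 2 and 6 in Fam134bKO cells, where the shares were 17.3% and 16.1%. The genes named here were chosen after their values were seen. Ezh2, the catalytic subunit of PRC2 in dividing cells, fell by 0.95 on the log2 scale from WT myoblasts to WT myotubes (SE 0.16, limma, Benjamini-Hochberg adjusted p = 0.000247) and by 1.28 in Fam134bKO cells (SE 0.16, adjusted p = 3.66e-06). Suz12, a core subunit, fell by 1.29 (SE 0.26, adjusted p = 0.00136) and by 1.16 (SE 0.26, adjusted p = 0.00193). Ezh1, the paralog of Ezh2 in resting cells, stood at 80.3 ± 2.93 and 104 ± 8.18 normalized counts in WT myoblasts and myotubes and at 98.5 ± 11.3 and 189 ± 7.93 in Fam134bKO cells (SD, n = 4), a log2 fold change of 0.36 in WT (SE 0.15, limma, adjusted p = 0.0927), which was not called, and of 0.94 in Fam134bKO cells (SE 0.15, adjusted p = 7.59e-05). Kdm6b, which removes H3K27 methylation, was called higher in myotubes of both lines, with log2 fold changes of 1.08 (SE 0.25, adjusted p = 0.00341) in WT and 1.25 (SE 0.25, adjusted p = 0.000553) in Fam134bKO cells.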
